A study of Mus musculus with 10 samples.

Results

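The stefin A cluster genes described here were *Stfa1*, *Stfa2*, *Stfa2l1* and *2010005H15Rik*, 4 of the 18292 gene symbols listed in the count tables. They were taken by name from every table, and a gene absent from a table was counted as 0. The slice cells were then separated into cells in which *S100a8* plus *S100a9* made up at least 1% of the UMIs (unique molecular identifiers, each standing for 1 captured transcript), termed *S100*-high cells, and the rest. The genes were chosen by their levels in these libraries, which were already known to differ between groups and cells, so those levels are given as a description and no test was made of them.

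Stefins are small inhibitors inside the cell that block papain-like cysteine proteases such as the cathepsins. The mouse carries a cluster of stefin A genes and near relatives, and their transcripts are known from neutrophils, the short-lived granulocytes that enter tissue after injury, and from skin. *S100a8* and *S100a9* encode the subunits of calprotectin, which fills the cytoplasm of neutrophils. Microglia, the resident macrophages of the brain, rely on cathepsins for the breakdown of material they take up.

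All samples came from C57BL/6 mice and were sorted as live CD11b high, CD45 intermediate cells and sequenced with the 10x Genomics 3' kit, with 2 libraries in each of 5 groups. Adult microglia were isolated from the brains of adult mice without culture. *In vitro* microglia came from mixed glial cultures of neonatal cortex after 3 weeks. Slice microglia came from coronal brain slices of pups in the first days after birth, without the cerebellum, after 1 day, 1 week or 3 weeks on a membrane, in medium that contained human PDGF, and slices were pooled where a sample needed it. The *in vitro* and slice groups therefore started from neonatal tissue, and age at isolation cannot be told apart from culture when they are set beside adult. No transgene or drug distinguished the groups.

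About 1000 cells per sample were loaded according to the labels, whereas the tables listed between 68 and 3834 barcodes per library. After limits on mitochondrial share, genes and UMIs, 19059 of 19637 barcodes remained, with 61 to 3799 cells and 385373 to 39689540 UMIs per library. The slice 1 week libraries were the smallest, with 148 and 61 cells. The median UMIs per cell ran from 1858 to 13966. Microglia markers (10 genes including *P2ry12* and *Tmem119*) made up 5.02% and 5.03% of UMIs in adult, 1.85% and 2.12% in slice 3 weeks and 0.209% and 0.2497% *in vitro*. A study label separated replicate 1 of adult and of slice 3 weeks from the remaining 8 libraries. Of 19410 barcode sequences, 226 were found in more than 1 library, and 6 *S100*-high cells carried such a barcode.

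On mouse chromosome 16 of build GRCm38, the members lay within 251647 bases, in a locus of 335447 bases that held 10 protein coding genes in the GENCODE annotation. *Stfa2l1* (ENSMUSG00000059657.5) ran from 36156811 to 36161953 on the plus strand. *2010005H15Rik* (ENSMUSG00000095620.7), which RefSeq names *Csta2*, ran from 36221468 to 36257444 on the plus strand. *Stfa1* (ENSMUSG00000071562.6) ran from 36276951 to 36285373 on the plus strand. *Stfa2* (ENSMUSG00000022902.8) ran from 36403992 to 36408457 on the minus strand. The coding sequence was 309 bases in *Stfa2* and *Stfa2l1*, 291 bases in *2010005H15Rik* and 291 or 384 bases, depending on the transcript, in *Stfa1*. *Gm5483* and *Gm5416* lay between *Stfa2l1* and *2010005H15Rik*, *BC117090* and *BC100530* between *Stfa1* and *Stfa2*, and *Csta1* and *Stfa3* at the outer ends. All 10 genes were listed in at least 1 count table.

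The promoters are shown because 3 of the 4 are close copies of each other and that of *2010005H15Rik* is not. Each line gives the 120 bases before the transcription start in RefSeq (GRCm38.p6), 5′ to 3′ on the gene's own strand, at chr16:36277028-36277147 (plus) for *Stfa1*, chr16:36408364-36408483 (minus) for *Stfa2*, chr16:36156691-36156810 (plus) for *Stfa2l1* and chr16:36221442-36221561 (plus) for *2010005H15Rik*. Capitals mark the longest run of bases that the 3 *Stfa* promoters share.
Stfa1: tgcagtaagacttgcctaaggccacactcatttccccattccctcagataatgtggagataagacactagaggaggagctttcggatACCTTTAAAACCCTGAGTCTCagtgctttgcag
Stfa2: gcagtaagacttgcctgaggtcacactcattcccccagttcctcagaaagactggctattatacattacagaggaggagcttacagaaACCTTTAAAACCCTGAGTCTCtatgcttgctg
Stfa2l1: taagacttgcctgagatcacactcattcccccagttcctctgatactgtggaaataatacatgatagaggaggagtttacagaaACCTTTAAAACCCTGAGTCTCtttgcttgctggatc
2010005H15Rik: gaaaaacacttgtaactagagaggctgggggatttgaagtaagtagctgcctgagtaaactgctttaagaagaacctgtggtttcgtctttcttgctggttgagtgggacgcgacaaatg

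The run was 21 bases long and ended 12, 11 and 15 bases before the start of *Stfa1*, *Stfa2* and *Stfa2l1*. It was found in 3 of 32544 distinct promoters (0.00922%) on either strand, which were those 3. Over 250 bases, the promoters of *Stfa2l1* and *Stfa2* were 89.4% identical, and that of *Stfa1* was 80.6% and 80.4% identical to *Stfa2* and *Stfa2l1*. The promoter of *2010005H15Rik* was between 43.5% and 44.6% identical to the others. The letters GAGGAA, the core of sites for the myeloid factor PU.1, occurred on either strand in the 250 bases of the 3 *Stfa* promoters and not in that of *2010005H15Rik*, and in 23.4% of all promoters. The C/EBP palindrome TTGCNNAA occurred in the *Stfa1* promoter alone among the members and in 9.58% of all promoters, and TATAAA occurred in no member and in 12.3% of all promoters. GENCODE places some of these starts elsewhere, and for *2010005H15Rik* it holds a further start at 36253046.

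The transcripts resemble each other at the 3′ end, where these libraries were read. In the last 300 bases, 45 of 211 windows of 90 bases of *2010005H15Rik* (21.3%) were identical to *Gm5483*, and 39 of 211 windows of *Stfa1* (18.5%) were identical to *BC100530*. *Stfa2* and *Stfa2l1* shared 8 and 7 windows (3.79% and 3.32%) with each other. How reads from such stretches were assigned was not tested here, so counts of these near copies are uncertain to that extent.

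All 4 members were counted in the slice at 1 day and 1 week, and *2010005H15Rik* was counted *in vitro* as well. No UMI of any member was counted in the 7326 adult cells, which allows up to 0.156 CPM (UMIs of a gene per 1000000 UMIs of the kept cells, here at 3 counts over both libraries). At slice 3 weeks 3 UMIs were counted in 4893 cells, 2 of *2010005H15Rik* and 1 of *Stfa2*. *In vitro*, the 3 *Stfa* genes gave 1 UMI in 5099 cells, a UMI of *Stfa1*, whereas *2010005H15Rik* gave 637 and 1601. *2010005H15Rik* was thus the member counted *in vitro*, and among the other genes of the locus *Gm5483* was counted there too, with 100 and 175 UMIs.

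*Stfa1* was the most abundant member, at 922 and 2731 CPM in slice 1 day replicates 1 and 2 and at 4189 and 132 CPM in slice 1 week replicates 1 and 2. The 2 libraries of slice 1 day differed 2.96-fold and those of slice 1 week 31.7-fold, so the means of 1826 ± 1279 and 2161 ± 2868 CPM (SD, n = 2) cannot be ordered. The mean at slice 1 day was at least 11681-fold higher than the limit that the adult counts allow and at least 18356-fold higher than that at slice 3 weeks. Every library of slice 1 day and slice 1 week lay above every library of the other groups for *Stfa1*.

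*Stfa2* was counted at 149 and 516 CPM at slice 1 day and at 585 and 2.59 CPM at slice 1 week. The last value rests on 1 UMI, with a 95% Poisson interval from 0.0657 to 14.5 CPM that covers counting error only, as do all intervals here. *Stfa2l1* was counted at 176 and 498 CPM at slice 1 day and at 641 and 12.97 CPM at slice 1 week, where the lower value stands for 5 UMIs. Both genes thus followed *Stfa1* from library to library at a lower level.

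*2010005H15Rik* was counted at 18.8 and 40.3 CPM *in vitro*, 343 and 637 CPM at slice 1 day, 275 and 5.19 CPM at slice 1 week and 0.128 and 0.0448 CPM at slice 3 weeks. Its order of means was slice 1 day (490 ± 208 CPM), slice 1 week (140 ± 191 CPM), *in vitro* (29.5 ± 15.3 CPM) and slice 3 weeks, with adult at 0. The slice 1 week libraries lay on both sides of the *in vitro* libraries, and both were below those of slice 1 day. Its *in vitro* mean was at least 189-fold higher than the limit that the adult counts allow. With 2 libraries per group, the SD covers only the spread between these samples.

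**Figure D1:**
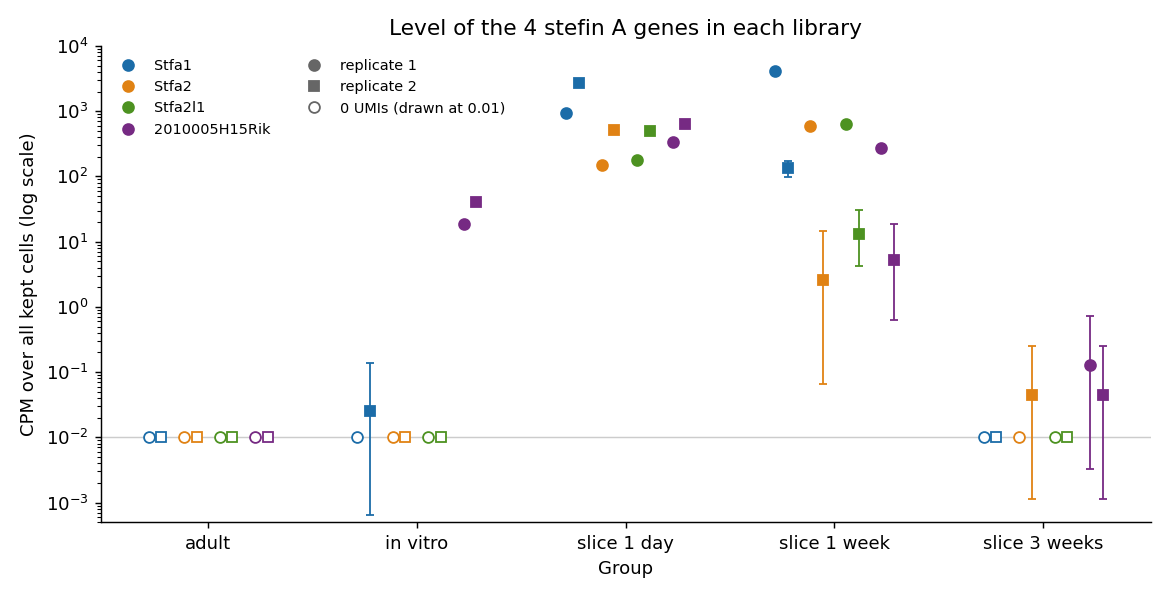
Level of each member in each of the 10 libraries, in CPM on a log axis, with points for libraries and the values at 0 drawn apart at the bottom. *Stfa1* sits between 132 and 4189 CPM at slice 1 day and 1 week and at or near 0 elsewhere, while *2010005H15Rik* is also counted *in vitro*, at 18.8 and 40.3 CPM.

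Most of these transcripts sat in few cells. *S100*-high cells were 68 of 518 cells (13.1%) and 114 of 1014 cells (11.2%) in the slice 1 day libraries, 24 of 148 (16.2%) in slice 1 week replicate 1 and 1 of 61 (1.64%, exact Clopper-Pearson interval 0.0415% to 8.80%) in replicate 2. None were found in adult, *in vitro* or slice 3 weeks libraries. They held 92.2% and 86.4% of the UMIs of the 4 genes at slice 1 day, 92.6% in slice 1 week replicate 1 and 50 of 59 UMIs (84.7%) in replicate 2. The slice 1 week library with few members was therefore also the library with 1 such cell.

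Within the *S100*-high cells *Stfa1* lay closer together between the 4 libraries than over all cells. It stood at 18935 and 29444 CPM of these cells at slice 1 day and at 28268 and 21266 CPM at slice 1 week, the last from a single cell with 43 UMIs. *Stfa2* stood at 3059, 5664 and 3989 CPM and *Stfa2l1* at 3606, 5485 and 4449 CPM in the 3 libraries with more than 1 such cell. *2010005H15Rik* stood at 5675 and 5936 CPM at slice 1 day and at 1876 CPM in slice 1 week replicate 1, the lowest of the 3 libraries.

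In the rest of the cells, *Stfa1* was at 36.1 and 366 CPM at slice 1 day and at 378 and 20.9 CPM at slice 1 week. The *S100*-high cells were 524-fold, 80.5-fold, 74.7-fold and 1019-fold above these values. For *2010005H15Rik* the folds were 70.5, 35.4 and 87.5 in the 3 libraries with more than 1 such cell. Since the split is part of how the cells were chosen, these folds are a description. The *S100*-high cells held fewer UMIs, with medians of 2224, 4925 and 4490.5 against 6986, 8901.5 and 7292 in the rest of the same 3 libraries.

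**Figure D2:**
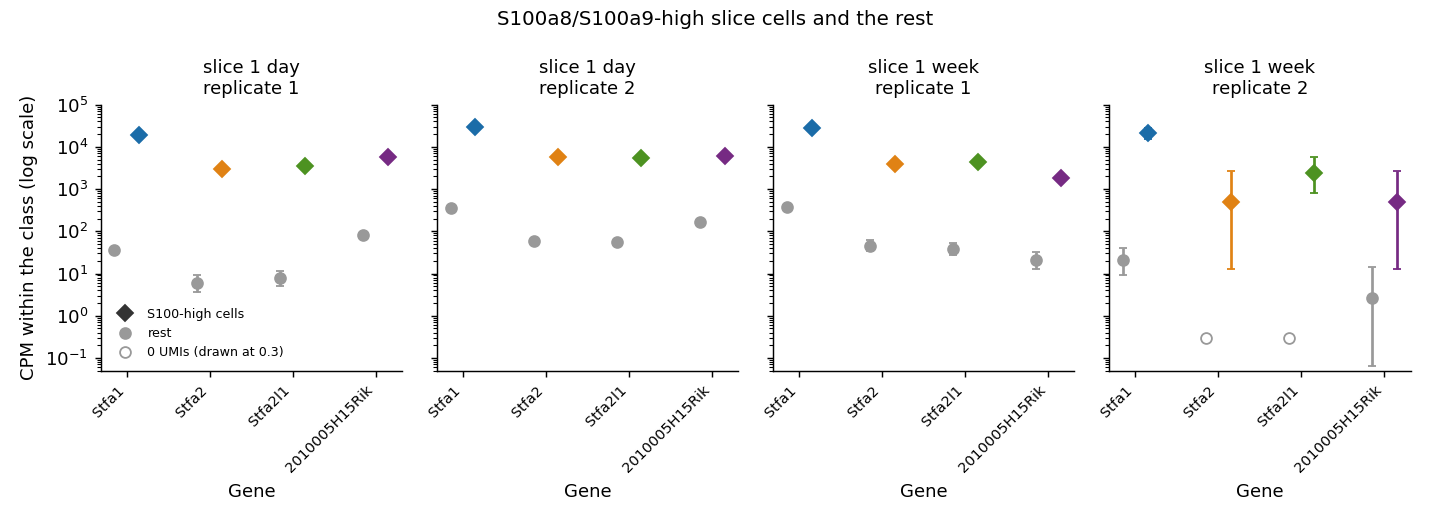
Level of each member in *S100*-high cells and in the rest of the cells of each slice 1 day and slice 1 week library, in CPM on a log axis. *Stfa1* lies between 18935 and 29444 CPM in the *S100*-high cells of all 4 libraries and between 20.9 and 378 CPM in the rest.

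The *S100*-high cells held more neutrophil transcripts than the rest, also without *S100a8* and *S100a9*, which define them. Without these, 21, 24 and 21 of the 24 genes left in a neutrophil list were counted in slice 1 day replicates 1 and 2 and slice 1 week replicate 1, at summed shares of 1.95%, 5.77% and 8.86% of UMIs. Nearly as many were counted in the rest of these libraries, 20, 24 and 20 genes, but at 0.0253%, 0.128% and 0.1896% of UMIs. In the cell of slice 1 week replicate 2, 4 of the 24 were counted, at 1.73% of UMIs against 0.00939% in the rest. Microglia markers stood between 0.143% and 0.240% of their UMIs, against 0.479% to 1.17% in the rest. Keratinocyte markers, a list for the other known site of stefin A of which 3 of 8 genes were measured, summed to between 0 and 1.29 CPM, and mast cell and basophil markers, 6 of 8 measured, to between 0 and 6.77 CPM. Lymphocyte and red cell markers were at 105 CPM in the *S100*-high cells of slice 1 day replicate 1 and at 0 in the other 3 libraries, while the rest of slice 1 day replicate 1 held 3239.5 CPM. Monocyte markers were at 186, 1072 and 1063 CPM in the 3 libraries with more than 1 *S100*-high cell, against 544, 527 and 392 CPM in the rest.

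Few cells lay just above the threshold that separated the *S100*-high cells from the rest. In slice 1 day replicate 1, the 5 cells with between 0.5% and 1% of UMIs from *S100a8* plus *S100a9* held the 4 genes at 99.6 CPM from 2 UMIs, the 2 cells with between 1% and 2% at 42092 CPM, and the 13 cells with between 2% and 5% at 13659 CPM. In slice 1 day replicate 2, 42 cells just below the threshold stood at 1152 CPM, 4 cells just above at 5849 CPM and the 6 cells of the next interval at 4459 CPM. In slice 1 week replicate 1, 23 cells just below stood at 552 CPM and no cell lay just above. Relative to *S100a8* plus *S100a9*, the 4 genes summed to 21.9 and 25.3 UMIs per 100 in the *S100*-high cells of slice 1 day and 23.5 and 18.7 in the rest, and to 20.8 against 11.7 in slice 1 week replicate 1. Without *2010005H15Rik*, the 3 *Stfa* genes gave 17.9, 22.1 and 19.8 UMIs per 100 in the *S100*-high cells of these libraries and fewer in the rest, at 9.002, 13.9 and 11.2.

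**Figure D3:**
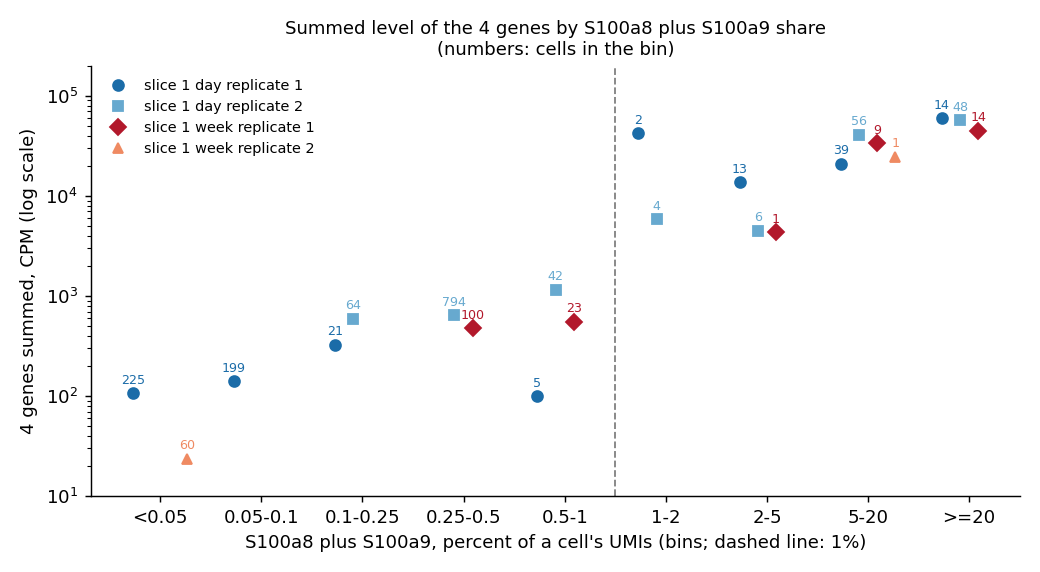
Summed level of the 4 genes, in CPM on a log axis, in cells binned by the share of *S100a8* plus *S100a9* among their UMIs, with points for libraries, shifted sideways within a bin, and numbers for cells in the bin; a bin without a UMI of the 4 genes is not drawn. The bins just above the dashed line at 1% hold few cells: in slice 1 day the bins from 1% to 5% stand between 4459 and 42092 CPM from 2 to 13 cells each, without a steady order, and the last bin, above 20%, stands at 59483 and 56755 CPM from 14 and 48 cells.

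Most *S100*-high cells held several members at once. All 4 genes were counted in 39 of 68, 91 of 114 and 19 of 24 cells of slice 1 day replicates 1 and 2 and slice 1 week replicate 1, and in the 1 cell of slice 1 week replicate 2. None was counted in 7 of 68 and 1 of 114 cells at slice 1 day. The 4 genes took a median of 2.22%, 4.64% and 4.25% of a cell's UMIs in those 3 libraries, and the highest cells reached 8.38%, 8.50% and 7.43%. The cells thus spanned a wide range, and slice 1 day replicate 1, whose *S100*-high cells were also the shallowest of the 3, had the lowest median. Thinned to 1000 UMIs per cell, 88.2%, 97.4% and 95.8% of the *S100*-high cells still held a UMI of at least 1 member.

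Across *S100*-high cells of a library, the members were positively correlated. Pearson correlations between pairs of members, on log2 of 1 plus UMIs per 10000, ran from 0.55 to 0.892 over the 68, 114 and 24 cells of the 3 libraries. *Stfa1* and *Stfa2l1* gave 0.892, 0.803 and 0.885. *Stfa1* and *2010005H15Rik* gave 0.808, 0.651 and 0.744. These are descriptions over cells that share a library and differ in depth.

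The cells also differed in granule genes. Secondary granule genes (*Ltf*, *Camp*, *Ngp*, *Lcn2*, *Chil3* and *Cybb*), which neutrophil precursors in bone marrow make, summed to 2266 CPM in the *S100*-high cells of slice 1 day replicate 1, 41453 CPM in replicate 2 and 74394 CPM in slice 1 week replicate 1. Late genes of mature neutrophils, among them *Mmp9*, *Retnlg*, *Cxcr2* and *Csf3r*, were at 11838, 11376 and 11777 CPM. The 4 stefin genes summed to 31274, 46529 and 38582 CPM in the same cells, a narrower range than that of the secondary granule genes and not in their order. Over cells, the correlation of the 4 genes with secondary granule genes was 0.492, 0.650 and 0.355, and that with late genes 0.178, 0.357 and 0.255. *Stfa1* kept this order, and the other members did not in every library. *Stfa2* gave 0.310, 0.693 and 0.265 against 0.465, 0.454 and 0.466 with late genes. *Stfa2l1* gave 0.410, 0.648 and 0.259 against 0.171, 0.415 and 0.263, and *2010005H15Rik* 0.377, 0.411 and 0.0656 against 0.308, 0.462 and 0.624. Early granule genes such as *Elane* and *Mpo* stood at 69.9, 518 and 142 CPM, and their correlation with the 4 genes was 0.0478, 0.0791 and −0.689, the last with a UMI of the list in 9 of 24 cells.

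The make-up of the 4 genes set *2010005H15Rik* apart. In *S100*-high cells *Stfa1* gave 60.5%, 63.3% and 73.3% of the UMIs of the 4 genes and *2010005H15Rik* 18.1%, 12.8% and 4.86%, in slice 1 day replicates 1 and 2 and slice 1 week replicate 1. In the rest of the slice 1 day cells, *2010005H15Rik* gave 61.8% and 25.8%, and *Stfa1* gave 27.7% and 56.3%, so that *Stfa1* remained the largest member in replicate 2. As UMIs per 100 of *Stfa1*, *Stfa2* stood at 16.2, 19.2 and 14.1 in the *S100*-high cells and at 16.7, 16.4 and 12.2 in the rest, and *Stfa2l1* at 19.05, 18.6 and 15.7 against 21.4, 15.3 and 10.2. *2010005H15Rik* stood at 29.97 and 20.2 per 100 in the *S100*-high cells of slice 1 day against 223 and 45.8 in the rest, while at slice 1 week it was at 6.64 against 5.67. *Stfa2* and, at slice 1 day, *Stfa2l1* thus kept similar ratios to *Stfa1* in both kinds of cells, and *2010005H15Rik* at slice 1 day did not. In slice 1 week replicate 1 the ratio of *Stfa2l1* was lower in the rest, from 36 UMIs.

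Outside the *S100*-high cells the *Stfa* genes were thinly spread. *Stfa1* was counted in 22.7% and 93.8% of the rest of the slice 1 day cells and in 81.5% and 6.67% of those of slice 1 week, but no such cell of slice 1 day held more than 3 UMIs in replicate 1 or 15 in replicate 2. At 1000 UMIs per cell these shares were 4.0%, 27.4%, 23.4% and 0%. The libraries with the larger shares also had more *S100a8* plus *S100a9* in the same cells, at 554, 3466, 4149.6 and 70.4 CPM in this order, against 0.588 to 7.43 CPM in the adult, *in vitro* and slice 3 weeks libraries. Every cell of slice 1 day replicate 2 and slice 1 week replicate 1 held at least 1 UMI of *S100a8* or *S100a9*, while 35 and 39 cells of slice 1 day replicate 1 and slice 1 week replicate 2 held none. How much of the counts outside the *S100*-high cells was RNA from other cells in the same suspension was not tested.

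*2010005H15Rik* also lay mostly in *S100*-high cells in the slice, with 77.6% and 75.8% of its UMIs at slice 1 day and 93.3% in slice 1 week replicate 1, against 96.3%, 87.7% and 92.2% for *Stfa1*. Outside those cells, it was concentrated in a small number of cells *in vitro* and in part at slice 1 day, and in slice 1 week replicate 1 no such cell held more than 4 UMIs. *In vitro* it was counted in 117 of 2417 cells (4.84%) and 278 of 2682 cells (10.4%), and in 0.869% and 2.61% at 1000 UMIs per cell. In replicate 1, 9 cells with at least 20 UMIs held 56.5% of its UMIs, with up to 114 in a cell. In replicate 2, 17 such cells held 37.9%, with up to 68 in a cell. The 27 and 90 cells with at least 5 UMIs held 79.4% and 82.3%, so that most cells of these cultures gave no UMI of the gene and a few gave many.

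The same cells held *Gm5483*, another gene of the locus, while *Gm5416*, which lies between the pair, had no UMI *in vitro*. *In vitro*, *Gm5483* stood at 142 and 77.0 CPM in the cells with at least 5 UMIs of *2010005H15Rik* and at 0.480 and 0.689 CPM in the others, whereas *Stfa1* gave 0 and 1 UMI in them and *Stfa2* and *Stfa2l1* none. These cells were deeper, with median UMIs of 21917 and 21781 against 12814.5 and 13785.5, and held microglia markers at 0.118% and 0.132% of UMIs against 0.252% and 0.213%. As given above, 45 of 211 windows at the 3′ end of *2010005H15Rik* were identical in *Gm5483*, so part of the *Gm5483* counts could belong to reads of either gene, and that share was not tested.

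At slice 1 day the gene was less concentrated. Among the cells that were not *S100*-high, 13 and 55 held at least 5 UMIs of *2010005H15Rik* and together 43.8% and 43.6% of its UMIs there, with up to 18 and 125 UMIs in a cell. *Gm5483* stood at 145 and 960 CPM in them, against 47.2 and 341 CPM in the others, and its correlation with *2010005H15Rik* over 1350 such cells was 0.254. *Stfa1* was close in both sets of cells, at 41.4 against 35.9 CPM in replicate 1 and 379 against 365 CPM in replicate 2, while *S100a9* stood at 159 against 180 CPM and 1432 against 1488 CPM and *S100a8* at 490 against 370 CPM and 2102 against 1973 CPM. Their median UMIs were 9753 and 11726, against 6927 and 8657 in the others, and microglia markers made up 0.445% and 0.407% of UMIs against 0.570% and 0.485%.

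**Figure D4:**
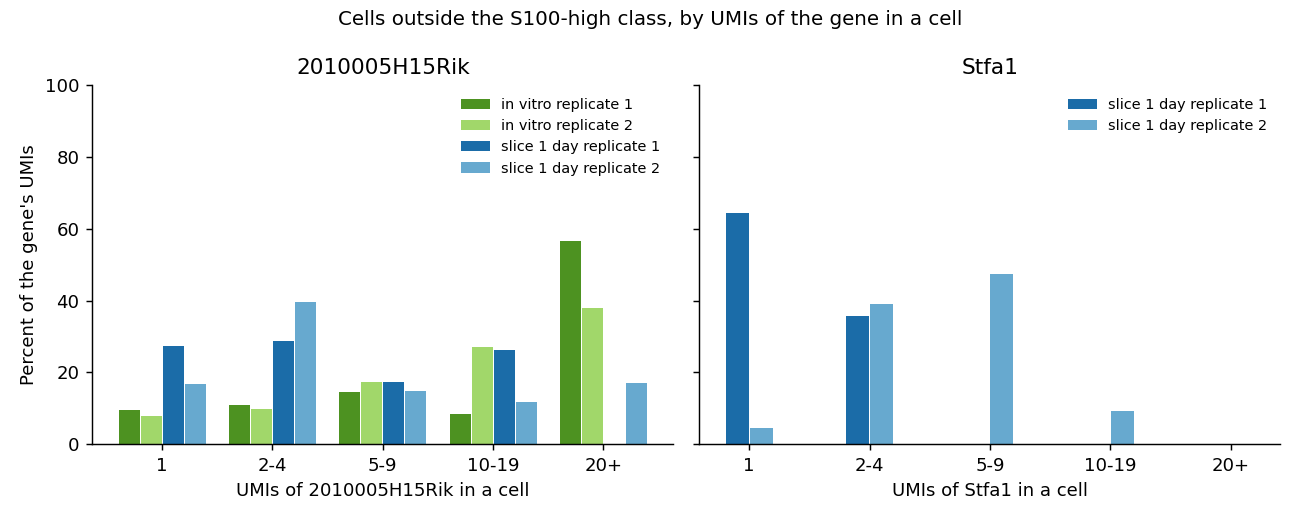
Share of a gene's UMIs outside the *S100*-high cells, in percent, held by cells with 1, 2 to 4, 5 to 9, 10 to 19 or at least 20 of its UMIs. *In vitro*, cells with at least 20 UMIs of *2010005H15Rik* hold 56.5% and 37.9% of its UMIs, whereas in the slice 1 day libraries no cell outside the *S100*-high cells holds 20 UMIs of *Stfa1*.

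The genes most like the members were named by Pearson correlation with the 4 genes summed, over 6634 slice cells and 12138 genes, each library centred on its own mean. They were *Gm5483* (0.866), *S100a9* (0.836), *S100a8* (0.828), *BC100530* (0.819), *Gm5416* (0.745), *Wfdc21* (0.741), *S100a11* (0.721), *Hp*, which encodes haptoglobin (0.711), *Pglyrp1*, which encodes a peptidoglycan recognition protein (0.703), and *BC117090* (0.689). Of the 10, 4 were genes of the same locus. Among the 206 *S100*-high cells of the libraries with more than 1, 6 of the 10 were named again, led by *Gm5483* (0.923) and *BC100530* (0.807), ahead of *S100a9* (0.652), and *Stfa3* (0.601), *Lcn2* (0.570), *Anxa1* (0.555) and *Ifitm6* (0.526) entered. For *2010005H15Rik* over the 5099 *in vitro* cells, *Gm5483* (0.7499) was followed at a distance by *S100a4* (0.376), *S100a6* (0.376), *Plp2* (0.3001) and *Spp1* (0.278). These values describe cells that share libraries and depth, and carry no p-value.

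Of the other genes of the locus, *Gm5483*, *BC100530* and *Stfa3* were abundant in the *S100*-high cells. None of the 7 measured had a UMI in adult or slice 3 weeks. *Gm5483* stood at 15835, 25619 and 17066 CPM in the *S100*-high cells of slice 1 day replicates 1 and 2 and slice 1 week replicate 1, and *BC100530* at 14192, 34664 and 30807 CPM. *Stfa3* was at 1608, 5352 and 3542 CPM. *Gm5416* and *BC117090* were lower and did not share an order of libraries with the members, at 1049, 753 and 413 CPM and at 175, 253 and 677 CPM. *Csta1* and the pseudogene *Gm4758* were at 20.3 CPM or less. *In vitro*, *Gm5483* gave 2.94 and 4.41 CPM and no other of these 7 genes was above 0.0504 CPM. Relative to 100 UMIs of *Stfa1*, *BC100530* stood at 75.0, 118 and 109 in the *S100*-high cells and 78.6, 126 and 131 in the rest, while *Gm5483* stood at 83.6, 87.0 and 60.4 against 142, 107 and 72.2.

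The inhibitors and their target enzymes were then compared between groups with edgeR on counts summed per library. The sums covered all kept cells, *S100*-high cells included, so folds at slice 1 day and slice 1 week mix both kinds of cells. Genes were called at an adjusted p below 0.05 and a fold above 1.5. The 4 comparisons share the adult libraries. Of 6 cystatin family genes and 10 cathepsins measured outside the locus, 4 and 9 were tested, and 10, 10, 9 and 11 of the 13 were called against adult in the *in vitro* microglia and in the slice at 1 day, at 1 week and at 3 weeks. Of all 12157 genes tested, 50.8%, 50.2%, 28.6% and 35.4% were called. *Kng2*, with UMIs in adult alone, and *Ctsw*, at 3.04 CPM or less in the mean of every group, passed the filter on low counts only through the libraries in which they were highest, so their calls are left out of what follows. The other 11 had a mean over the 10 libraries of at least 10 CPM, a limit chosen after seeing the data, and 8, 9, 8 and 9 of them were called, beside 51.3%, 53.2%, 35.3% and 37.2% of the 7346 genes over that limit. By direction, 24.8% of these genes were called higher and 26.5% lower *in vitro*, 27.1% and 26.1% at slice 1 day, 17.2% and 18.1% at slice 1 week, and 19.0% and 18.2% at slice 3 weeks. Among the 3 cystatin family genes left, *Cstb*, *Cst3* and *Cst7*, 1 rose and 2 fell *in vitro*, 1 rose and 1 fell at slice 1 day, and 2 rose and 1 fell at slice 1 week and at slice 3 weeks. The other locus genes had no UMI in adult and passed the filter on low counts only through the libraries in which they were abundant, so their calls are not given.

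*Cstb*, which encodes stefin B, the relative of stefin A found in most cells, was present in all groups. It stood at 159 and 167 CPM in adult, 1086 and 1166 CPM *in vitro*, 1125 and 1050 CPM at slice 1 day and 382 and 516 CPM at slice 1 week, without overlap with adult. Its log2 fold changes against adult were 3.10 *in vitro*, 2.86 at slice 1 day, 1.65 at slice 1 week and 1.85 at slice 3 weeks, with edgeR adjusted p of 6.96e-07, 2.49e-06, 1.72e-04 and 5.77e-05. Unlike the stefin A genes, *Cstb* was not concentrated in the *S100*-high cells, where it stood at 1142, 576 and 183 CPM against 1125, 1091 and 414 CPM in the rest.

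*Cst3*, which encodes the secreted inhibitor cystatin C, fell in all 4 comparisons. It went from 64970 ± 6777 CPM in adult to 3128 ± 199 *in vitro*, 2688 ± 1094 at slice 1 day, 5756 ± 1001 at slice 1 week and 9920 ± 843 at slice 3 weeks (SD, n = 2). *Cst7*, which encodes cystatin F, an inhibitor of cathepsins in lysosomes, went from 20.2 ± 5.52 CPM in adult to 6.77 ± 0.380 *in vitro* and 1255 ± 494 at slice 3 weeks, with log2 fold changes of −1.29 and 6.15 and edgeR adjusted p of 6.22e-03 and 2.71e-06. At slice 3 weeks, where the stefin A genes were nearly absent, *Cst7* was thus at its highest.

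Among the cathepsins, *Ctsb* rose in all 4 comparisons, with log2 fold changes of 1.92, 0.77, 0.73 and 1.86. *Ctss* fell in all 4, with log2 fold changes of −1.90, −2.16, −0.98 and −0.84. *Ctsl* rose by 1.72, 1.10 and 2.01 in the 3 slice groups and was not called *in vitro*, where its log2 fold change was −0.19. In counts over the 8 cathepsins left without *Ctsw*, 1 rose and 4 fell *in vitro*, 3 rose and 4 fell at slice 1 day, 2 rose and 3 fell at slice 1 week, and 3 rose and 3 fell at slice 3 weeks. Their median log2 fold change was −0.84, −1.001, −0.17 and −0.39, beside −0.03, −0.01, −0.09 and −0.02 over all genes with at least 10 CPM, and over the 3 cystatin family genes it was −1.29, 0.62, 1.65 and 1.85. The *S100*-high cells held few cathepsin transcripts, summing to 3094, 3526 and 3528 CPM in the 3 libraries with more than 1 such cell against 16067, 15054 and 16616 CPM in the rest. *Ctsb* alone stood at 1194, 1231 and 826 CPM in the *S100*-high cells against 5237, 5561 and 4750 CPM in the rest. The stefin A genes were thus highest in cells with few cathepsin transcripts, whereas the other cystatin family genes together stood, like the cathepsins, higher in the rest, at 4719, 3130 and 6101 CPM against 2505, 1446 and 1483 CPM in the *S100*-high cells.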

How the data were processed

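Single cell RNA was measured in 10 libraries, 2 in each of 5 groups set by the labels. The authors made the deposited counts (UMIs per gene and barcode, not normalized) with Cell Ranger 1.3.0 on mm10, per the submitters' processing notes. Whether the tables precede its aggregate step is not given in the sources used here. All columns belonged to these samples.

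Barcodes were kept at up to 5% mitochondrial UMIs, with at least 400 genes and at most 30000 UMIs, which left out 578 of 19637. The study clustered fewer cells than these limits left. No doublet caller was run. Levels are CPM over all UMIs of the cells described. Kept UMIs per library ran from 385373 to 39689540, and intervals (exact Poisson or Clopper-Pearson, 95%) cover counting error only. A UMI from a 3' tag counts a transcript once whatever its length.

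Counts summed per library were fitted with edgeR 4.0.16 (R 4.3.3; glmQLFit, glmQLFTest, TMM, filterByExpr) in 1 model of 10 libraries and 5 groups, with Benjamini-Hochberg adjustment over 12157 genes. The code was tested on simulated data. DESeq2 1.42.0 was an alternative, and others were the filters, the replicate block, the study label and leaving out each library. Added after seeing the data was a limit of 10 CPM on the list genes counted. Python 3.11.15 with numpy 2.4.6, pandas 2.3.3, scipy 1.17.1, Biopython 1.88 and matplotlib 3.10.9 did the rest. Promoters and genes came from RefSeq and GENCODE tables of GRCm38.

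The members and the gene lists were chosen with earlier results of these data known. Named were the 4 members, genes of the lists where a value was needed, and the 10 genes with the highest correlation, over genes with a UMI in at least 20 slice cells; the genes named from the *S100*-high cells and from the *in vitro* cells were chosen after their values were seen. Protein sequences were not used here.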

Additional observations from a re-analysis of the deposited data

Results flagged for a closer look

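The barcodes left out by the limits on cells also held UMIs of the 4 genes, which is a signal outside the cells described, while those left out of the adult libraries held none. The left-out barcodes of slice 1 day replicate 2 held 11074 UMIs of the 4 genes, beside 41790 in its kept cells. Of its 20 left-out barcodes, 11 had more than 30000 UMIs and 7 were *S100*-high. Those of slice 1 day replicate 1 and slice 1 week replicate 1 held 4 and 9 UMIs. *In vitro*, the left-out barcodes of replicates 1 and 2 held 357 and 424 UMIs, beside 637 and 1602 in the kept cells, and 81 and 74 of them had more than 30000 UMIs. Whether these barcodes were doublets was not tested.

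The log2 fold change of *Cst7* against adult differed between *in vitro* and the slice. It was higher by 2.96 at slice 1 week (edgeR adjusted p of 6.71e-04 for the difference) and by 7.44 at slice 3 weeks (9.11e-07).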

How the results depend on the processing

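Of 93 recomputed values, 88 stayed within the spread between the 2 libraries or, for counts of genes, within 1.5 times. Directions were not checked. A mean over 2 libraries stays within that spread when either is left out, so those values could not count as moved. The adult levels, where no member was counted, could not move either. That spread was wide at slice 1 day and slice 1 week, so several of the 88 moved by more than 1.5 times. The summed level at slice 3 weeks was 0.109 CPM and 0.0779 CPM as a mean over cells, from 3 UMIs. Of the 10 genes most like the members, 6 were named again in the *S100*-high cells alone, a comparison chosen after seeing the data, as was leaving out each slice library, which kept 9 to 10. Without replicate 1 or 2, the summed level ran from 18.8 to 40.4 CPM *in vitro*, from 1590 to 4381 at slice 1 day and from 153 to 5689.5 at slice 1 week, where without replicate 1 only the 59 UMIs of replicate 2 remain. The share in *S100*-high cells ran from 86.4% to 92.2% at slice 1 day and from 84.7% to 92.6% at slice 1 week. No share could be given at slice 3 weeks, which had no such cell.

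Leaving out a library leaves an arm with 1 library assumed to vary like the others, so cystatin and cathepsin genes called are not counted there. All genes called at slice 1 week fell from 3472 to 1446 without replicate 1. With the replicate number as a block, 9, 10, 8 and 11 were called. The numbers did not pair the samples, since same-numbered deviations correlated between −0.112 and 0.0941. Shares of cells with a UMI fell when cells were thinned to 1000 UMIs, from 72.1% to 26.8% for any member in the rest of slice 1 day, from 7.60% to 1.74% for *2010005H15Rik* *in vitro*, from 45.3% to 16.9% in the rest of slice 1 week, and from 100% to 97.9% in *S100*-high cells of slice 1 week. The small slice 1 week libraries limit all values there.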
